A study of Mus musculus with 6 samples.

Results

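The nuclear genes for subunits of respiratory complexes II, III, IV and V were followed in epididymal fat of mice with a knockout of the transferrin receptor gene Tfrc and of control mice. They are the rows of the deposited table named Sdha, Sdhb, Sdhc, Sdhd or Cyc1, or with names that begin with Uqcr, with Cox4 to Cox8 and a letter, or with Atp5. Cox7a1, Cox8b and names containing "-ps" were left out. The rule gave 46 of 35275 genes, with 4 in complex II, 9 in complex III, 16 in complex IV and 17 under ATP synthase (complex V).

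The control group was 3 samples labelled Tfrcfl/fl, a genotype whose Tfrc alleles carry recombination sites but are otherwise intact. The knockout group was 3 samples labelled TfrcAKO, a line known as a deletion of the gene in adipocytes, although its labels leave the abbreviation unexplained. The promoter that drives the recombinase is not given in the sources used here, and other cells of the depot would keep the gene. All animals were male C57BL/6 mice, put on a 60% high fat diet at the age of 2 months for 10 weeks, and 4.5 months old when the fat depot was taken, so every group shares the diet and there is no lean group. Values are FPKM, fragments per kilobase of gene and per 1000000 gene-assigned reads, from libraries of 25252839 to 30650624 gene-assigned reads. Where values of single samples follow, they stand in the order of replicates 1, 2 and 3. Tfrc itself had 11.1, 13.2 and 11.9 FPKM in the control group against 7.10, 8.27 and 9.50 FPKM in the knockout group. The adipocyte genes Adipoq and Plin1 and the macrophage genes Cd68 and Lyz2 were present in all 6 samples and the testis genes Prm1, Prm2, Tnp1 and Tnp2 with 4 epididymis genes summed to at most 2.87 FPKM in any sample.

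The respiratory chain in the inner mitochondrial membrane passes electrons from fuel oxidation to oxygen and uses the energy to pump protons, and ATP synthase lets the protons flow back to make ATP. Complex II, succinate dehydrogenase, also belongs to the tricarboxylic acid cycle. Complex III, the cytochrome bc1 complex, passes electrons from ubiquinol to cytochrome c, and complex IV, cytochrome c oxidase, hands them to oxygen. Iron is built into the chain: complexes II and III hold iron-sulfur clusters and heme, and complex IV holds heme. ATP synthase holds no iron. The catalytic core of complex IV and some subunits of complexes III and V are encoded in mitochondrial DNA. The genes described here are nuclear, and most of them make other subunits.

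Most of these mRNAs were more abundant in knockout than in control fat, by modest amounts. Of the 46 genes, 44 passed the filter of 0.5 FPKM in 3 or more samples. Cox7b2 was at 0 in all 6 samples and Cox8c had a single read in knockout replicate 2, and these testis isoforms were not tested. With limma on log2(FPKM + 0.5), a scale that understates changes of low genes, 27 of the 44 rose at an adjusted p under 0.05 and 1 fell. Over all 14383 tested genes 21.9% rose and 21.6% fell in the same fit. All 3 knockout values lay above all 3 control values for 37 of the 44 genes, against 29.1% of all tested genes, and below them for 3, against 31% of all tested genes. The median log2 difference was 0.36 over the 44 genes and −0.03 over all tested genes. By complex the median was 0.36 for complex II, 0.53 for complex III, 0.31 for complex IV and 0.31 for ATP synthase. The 7 genes with a fold above 1.5 were Atp5b, Sdha, Uqcrfs1, Cyc1, Cox8a, Uqcr11 and Cox4i2, and the highest of these folds was 1.64, for Atp5b.

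**Figure D1:**
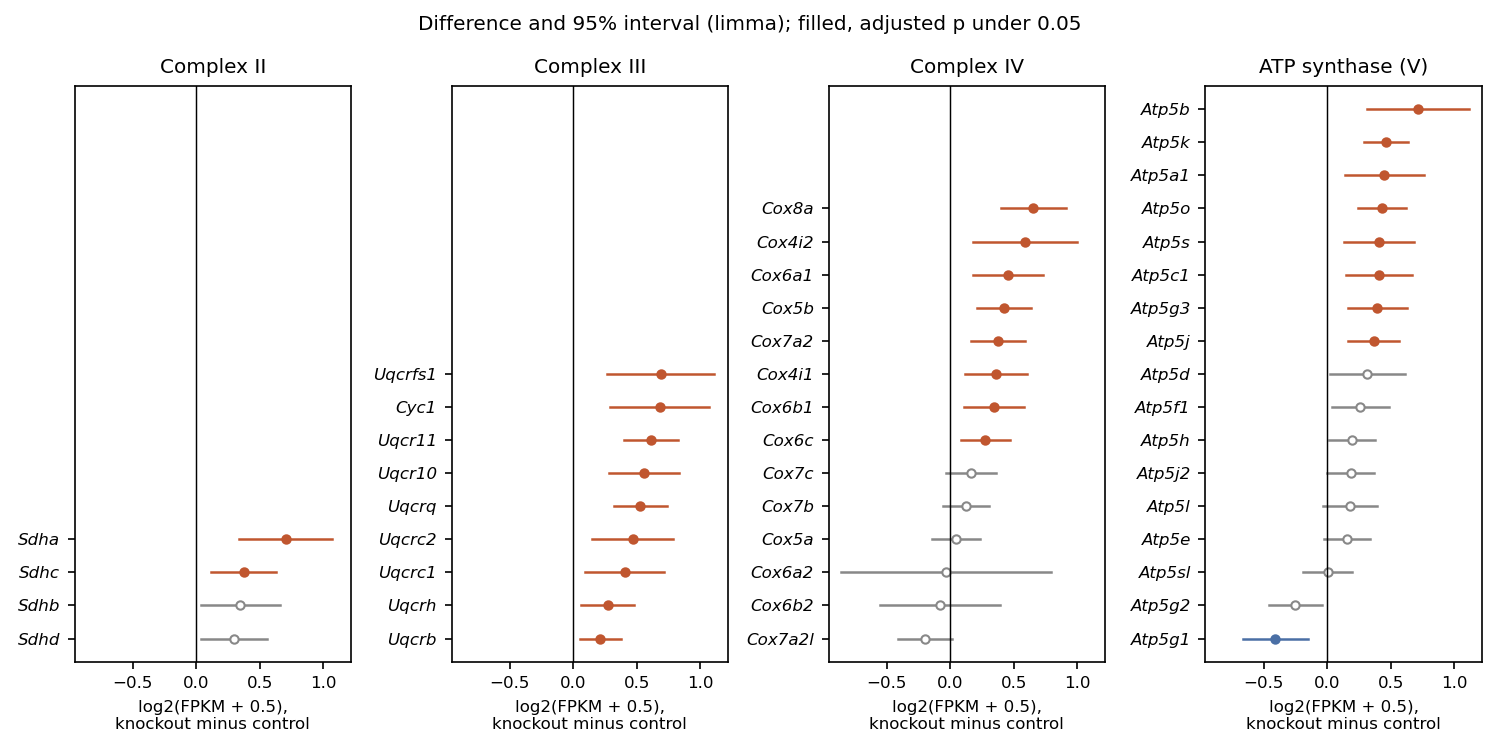
Difference in log2(FPKM + 0.5), knockout minus control, with its 95% interval from limma for the 44 tested genes, by complex; filled points have an adjusted p under 0.05 over all tested genes. All 9 genes of complex III lie above 0, and in ATP synthase Atp5g1 and Atp5g2 lie below 0.

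The number of genes called depended on which control library was kept. It was 16 higher without control replicate 1, and 6 higher without control replicate 2 or without control replicate 3. In those fits 17.7%, 14.5% and 13.5% of all tested genes were called higher, against 36.4%, 13.6% and 13.6% of the 44. The median log2 difference of the 44 genes stayed between 0.33 and 0.39 in those 3 fits. Atp5k, Atp5o, Cox8a, Uqcr10, Uqcr11 and Uqcrq were called higher in each of the 15 fits that were run.

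Markers of cell types moved with these genes. Of 12 mature adipocyte markers 11 were called higher and none lower, with a median log2 difference of 1.65, and their summed level was 7036 to 10252 FPKM in control and 18685 to 25330 FPKM in knockout samples. Of 12 macrophage markers 10 were called lower and none higher, with summed levels of 6029 to 6961 FPKM in control and 1487 to 3323 FPKM in knockout samples. All 6 endothelial markers were called higher, with sums of 71.9 to 83.6 FPKM in control and 147 to 222 FPKM in knockout samples. So were 7 of 9 smooth muscle and pericyte markers, with sums of 110 to 126 FPKM in control and 203 to 266 FPKM in knockout samples. Of 5 mesothelial markers 4 were called higher, with sums of 57.99 to 61.4 FPKM in control and 92.6 to 113 FPKM in knockout samples. Of 6 progenitor and fibroblast markers 1 was called lower, with sums of 1134 to 1184 FPKM in control and 749 to 1127 FPKM in knockout samples. None of the markers in these 6 lists was at 0 in all samples. In whole tissue a change in the number of cells of a type and a change in RNA per cell cannot be told apart. The part of these cell types in the differences below was not tested.

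In complex II the flavoprotein gene rose most. Sdha, which encodes the subunit that binds FAD and oxidises succinate (ENSMUSG00000021577, mm10 chromosome 13, 74322254 to 74350280, minus strand), was at 104, 94.2 and 92.7 FPKM in control and 138, 144 and 200 FPKM in knockout samples. The groups did not overlap, and knockout replicate 3 stood above the other two. The log2 difference was 0.70 ± 0.15 (SE, limma adjusted p = 0.0128). Sdhc, one of the membrane anchors that hold heme b, was at 38.4, 37.4 and 37.9 FPKM in control and 44.8, 46.1 and 57.9 FPKM in knockout samples, and rose by 0.37 ± 0.11 (limma adjusted p = 0.0296).

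The other anchor and the iron-sulfur subunit were also higher in every knockout sample but did not pass the test. Sdhb, the iron-sulfur protein, was at 78.9, 79.1 and 77.1 FPKM in control and 87.5, 93.2 and 122 FPKM in knockout samples. Its log2 difference was 0.35 ± 0.13 (limma adjusted p = 0.0684). Sdhd was at 75.2, 73.9 and 72.2 FPKM in control and 79.9, 89.7 and 104 FPKM in knockout samples, a log2 difference of 0.30 ± 0.11 (limma adjusted p = 0.0626). In both genes the control samples lay close together and the spread was in the knockout group. Sdhb passed the test without knockout replicate 1 (log2 difference 0.44, limma adjusted p = 0.0390) or 3 (0.20, limma adjusted p = 0.0376), and Sdhd without knockout replicate 1 (0.39, limma adjusted p = 0.0259). Without control replicate 2 or 3 no complex II gene was called (for Sdha, adjusted p = 0.0534 and 0.0533, limma).

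All 9 genes of complex III rose, with log2 differences from 0.21 to 0.69, and in each of them every knockout sample exceeded every control sample. The subunits that carry its iron had the largest differences over all 6 samples, which did not hold without knockout replicate 3. Uqcrfs1, the Rieske iron-sulfur protein (ENSMUSG00000038462, chromosome 13, 30540308 to 30545362, minus strand), was at 70.9, 65.1 and 59.5 FPKM in control and 89.1, 93.8 and 138 FPKM in knockout samples. Its log2 difference was 0.69 ± 0.18 (SE, limma adjusted p = 0.0209). Cyc1, cytochrome c1, which holds heme (ENSMUSG00000022551, chromosome 15, 76343523 to 76345934, plus strand), was at 91.3, 78.2 and 74.8 FPKM in control and 112, 119 and 165 FPKM in knockout samples, and rose by 0.68 ± 0.16 (limma adjusted p = 0.0172). For both, knockout replicate 3 was the highest sample by a wide margin. Without it the log2 differences were 0.49 and 0.51, below the 0.59 of Uqcr11, which carries no iron.

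The small subunits of complex III had smaller spreads. Uqcr11 was at 141, 135 and 122 FPKM in control and 196, 203 and 209 FPKM in knockout samples. The knockout samples were level with each other, and its adjusted p of 0.00462 (log2 difference 0.61 ± 0.09, limma) was the smallest among the 44 genes. Uqcrq was at 76.7, 70.2 and 67.5 FPKM in control and 96.1, 105 and 109 FPKM in knockout samples, a rise of 0.53 ± 0.09 (limma adjusted p = 0.00607). Uqcr10 rose by 0.56 ± 0.12, and the core proteins Uqcrc1 and Uqcrc2, which stabilise the complex, by 0.40 ± 0.13 and 0.47 ± 0.13. The smallest rises were those of Uqcrh, the hinge protein that helps bind cytochrome c, by 0.27 ± 0.09, and Uqcrb, by 0.21 ± 0.07. Uqcrb was at 82.7, 82.4 and 79.1 FPKM in control and 95.05, 93.7 and 94.5 FPKM in knockout samples. Uqcrh was at 114, 116 and 116 FPKM in control and 128, 143 and 149 FPKM in knockout samples, and for both genes the groups did not overlap. The adjusted p of these last 5 genes lay between 0.0107 and 0.0434 (limma), and 5, 3 and 3 genes of complex III were called without control replicate 1, 2 and 3.

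Complex IV was mixed, with 8 of 14 tested genes higher and none lower. Cox8a, a small subunit in the isoform of most tissues (ENSMUSG00000035885, chromosome 19, 7215158 to 7217616, minus strand), was at 408, 379 and 370 FPKM in control and 572, 592 and 661 FPKM in knockout samples. The gap between the groups was wider than the spread within either, and the log2 difference was 0.65 ± 0.11 (SE, limma adjusted p = 0.00598). Cox5b, which binds zinc, was at 192, 174 and 175 FPKM in control and 236, 252 and 238 FPKM in knockout samples, and rose by 0.42 ± 0.09 (limma adjusted p = 0.0109). Cox6a1, Cox7a2, Cox4i1, Cox6b1 and Cox6c rose by 0.46 ± 0.12, 0.38 ± 0.09, 0.36 ± 0.10, 0.35 ± 0.10 and 0.28 ± 0.08 (limma adjusted p between 0.0157 and 0.0308).

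The remaining subunits of complex IV differed little. Cox7c was at 191, 187 and 176 FPKM in control and 201, 211 and 209 FPKM in knockout samples, with a log2 difference of 0.16 and a 95% interval from −0.03 to 0.36. Cox7b had 0.12, with an interval from −0.06 to 0.30. Neither gene was called, although for both every knockout sample exceeded every control sample. Cox5a was at 45.2, 44.2 and 40.7 FPKM in control and 42.7, 43.4 and 48.0 FPKM in knockout samples. Its groups overlapped and its log2 difference of 0.04 had an interval from −0.15 to 0.23. Cox5a and Cox5b, despite their names, are different subunits and not isoforms. Cox7a2l, a relative of Cox7a2 that joins complexes III and IV into supercomplexes (ENSMUSG00000024248, chromosome 17, 83501919 to 83514333, minus strand), was at 117, 121 and 109 FPKM in control and 105, 105 and 92.7 FPKM in knockout samples. The Cox7a2l mRNA was lower in every knockout sample but did not pass the test (log2 difference −0.20 ± 0.09, limma adjusted p = 0.108).

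Several complex IV subunits exist as an isoform of most tissues and another made in particular tissues. The isoform of most tissues was the far more abundant of each pair in both groups. Cox4i2, the isoform known from lung and smooth muscle, was at 2.90, 3.14 and 2.08 FPKM in control and 4.72, 3.51 and 4.70 FPKM in knockout samples. It rose by 0.59 ± 0.17 (limma adjusted p = 0.0310) on 45 to 106 reads per sample, and smooth muscle and pericyte markers were higher in the same samples. Cox4i2 was called in 7 of the 15 fits. The call was lost without control replicate 1, 2 or 3 and without knockout replicate 1 or 3. Its share of the summed FPKM of both Cox4 genes was 0.957% ± 0.155 in control and 1.19% ± 0.211 in knockout samples (SD, n = 3 each). The shares overlapped (exact permutation test, two-sided, p = 0.3).

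Cox6a2, the isoform of heart and skeletal muscle, was at 4.12, 3.68 and 3.51 FPKM in control and 5.70, 4.55 and 1.81 FPKM in knockout samples. Knockout replicates 1 and 2 were above all controls and replicate 3 was below them, so the log2 difference of −0.03 had an interval from −0.86 to 0.80. Without knockout replicate 3 it was 0.39 (limma adjusted p = 0.0382). Cox6a2 shares 70 exonic bases with Itgad, an integrin gene of myeloid cells on the same strand, which was at 9.46, 8.36 and 7.82 FPKM in control and 13.3, 15.1 and 4.90 FPKM in knockout samples. Knockout replicate 3 was thus the lowest sample for both genes, and how far the Cox6a2 values hold reads of Itgad was not tested. Of 8 skeletal muscle markers, Ckm, Myh1, Myh2 and Myh4 were at most at 0.128 FPKM in any sample and were not tested. Mylpf, Tnnt3 and Actn3 were between 0.281 and 1.57 FPKM and not called. Acta1, skeletal muscle actin, was at 8.90, 7.21 and 6.37 FPKM in control and 18.1, 15.1 and 20.6 FPKM in knockout samples, and rose by 1.21 ± 0.15 (SE, limma adjusted p = 0.00391). The list's sum was 9.09 to 11.6 FPKM in control and 17.2 to 23.4 FPKM in knockout samples, and its part in the Cox6a2 values was not tested. Cox6b2, the testis isoform, was at 4.98, 5.32 and 3.60 FPKM in control and 5.13, 4.73 and 3.25 FPKM in knockout samples, with overlapping groups and a log2 difference of −0.08 ± 0.20.

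Cox7a1 and Cox8b, the heart, muscle and brown fat isoforms that the rule leaves out, rose by 1.44 ± 0.14 and 1.74 ± 0.19 (SE, limma adjusted p = 0.00363 and 0.00366). Cox7a1 was at 10.1, 9.18 and 8.76 FPKM in control and 21.2, 26.8 and 31.0 FPKM in knockout samples. Cox8b was at 16.4, 13.8 and 10.8 FPKM in control and 38.1, 45.8 and 56.6 FPKM in knockout samples. For both genes the groups stood far apart. Cox7a1 made up 8.73% ± 0.194 of the summed FPKM of Cox7a1 and Cox7a2 in control and 17.1% ± 1.99 in knockout samples. Cox8b made up 3.399% ± 0.522 of the Cox8a and Cox8b sum in control and 7.11% ± 0.822 in knockout samples (SD, n = 3 each). For both shares all knockout samples were above all controls, which gives p = 0.1 in the exact two-sided permutation test, the smallest that 3 against 3 allows, and 0.16 after Benjamini-Hochberg adjustment over the 8 isoform shares compared. Ucp1, the uncoupling protein that defines brown fat, was between 0.0467 and 0.167 FPKM in all 6 samples. Of the 5 other brown adipocyte markers listed, which include Ucp1, 3 were tested: Cidea was called higher and Dio2 and Elovl3 lower. These 5 summed to 1.86 to 3.21 FPKM in control and 3.31 to 4.64 FPKM in knockout samples. Their part in these differences was not tested.

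**Figure D2:**
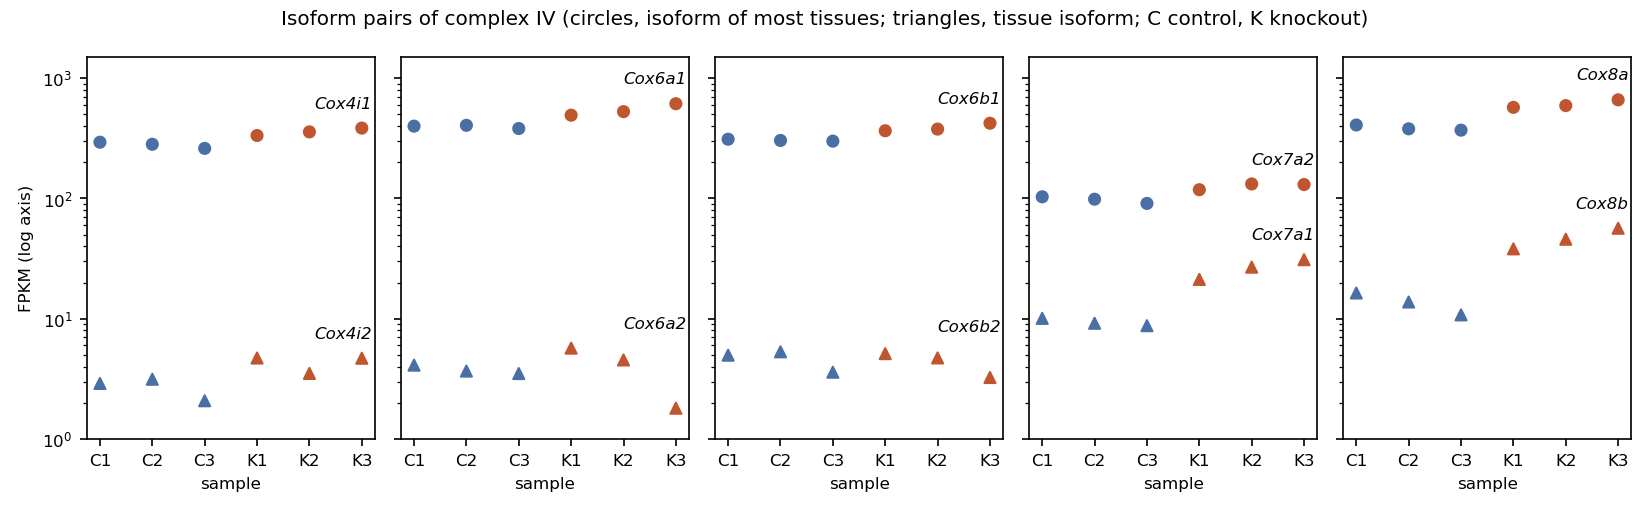
FPKM on a log axis in control (C1 to C3) and knockout (K1 to K3) samples for 5 isoform pairs of complex IV; circles are the isoforms of most tissues and triangles the tissue isoforms. The tissue isoforms lie far below their partners in every sample, and Cox7a1 and Cox8b rise more between the groups than Cox7a2 and Cox8a.

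ATP synthase had 8 of 17 genes called higher and 1 lower. The 17 include Atp5s, called higher, and Atp5sl, not called, which encode no structural subunit of the enzyme. In the catalytic head, Atp5b, the beta subunit whose sites form ATP (ENSMUSG00000025393, chromosome 10, 128083273 to 128090391, plus strand), was at 494, 432 and 439 FPKM in control and 646, 682 and 948 FPKM in knockout samples. It had the highest level of the 46 genes and, over all 6 samples, the largest difference, 0.72 ± 0.17 (SE, limma adjusted p = 0.0156). Without knockout replicate 3 its difference was 0.55, below those of Cox8a and Uqcr11 (0.59 each), and without control replicate 2 it was 0.68, below those of Cox4i2, Uqcrfs1 and Sdha. Atp5a1, the alpha subunit that alternates with beta in the head, was at 224, 206 and 204 FPKM in control and 257, 271 and 344 FPKM in knockout samples, and rose by 0.45 ± 0.13 (limma adjusted p = 0.0313). In both genes knockout replicate 3 was again the highest sample.

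In the central stalk, which turns inside the head, Atp5c1 rose by 0.41 ± 0.11 (limma adjusted p = 0.0248), while Atp5d and Atp5e had log2 differences of 0.31 and 0.16 that did not pass the test. In the peripheral stalk, which keeps the head from turning, Atp5o (the oligomycin sensitivity protein) and Atp5j rose by 0.43 ± 0.08 and 0.36 ± 0.08 (limma adjusted p = 0.00765 and 0.0143). Atp5o was at 81.8, 74.3 and 75.2 FPKM in control and 104, 100.02 and 108 FPKM in knockout samples. Atp5f1 and Atp5h had 0.26 and 0.19 and were not called. Among the small membrane subunits only Atp5k, known from the dimers of the enzyme, was called. It was at 93.3, 90.5 and 86.3 FPKM in control and 125, 124 and 124 FPKM in knockout samples, a rise of 0.46 ± 0.07 (limma adjusted p = 0.00544) with almost no spread among the knockout samples. Atp5j2 and Atp5l had log2 differences of 0.19 and 0.18, with intervals from 0.00 to 0.37 and from −0.03 to 0.39.

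A pair of genes whose names begin with Atp5 encode no structural subunit. Atp5s, coupling factor B, was at 4.87, 3.90 and 3.70 FPKM in control and 5.62, 5.31 and 6.03 FPKM in knockout samples, and rose by 0.41 ± 0.12 (limma adjusted p = 0.0287). Atp5sl, now known as Dmac2 and linked to complex I assembly, was at 7.15 ± 0.432 FPKM in control and 7.16 ± 0.414 FPKM in knockout samples (SD, n = 3 each). Its interval ran from −0.19 to 0.20, so a change as large as that of Atp5s lies outside it.

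The c subunit, which forms the turning ring in the membrane, is encoded by Atp5g1, Atp5g2 and Atp5g3. These genes make the same mature protein with different import sequences, and here they moved in opposite directions. Atp5g3 (ENSMUSG00000018770, chromosome 2, 73908447 to 73911326, minus strand) was at 236, 213 and 216 FPKM in control and 276, 284 and 314 FPKM in knockout samples, and rose by 0.40 ± 0.10 (SE, limma adjusted p = 0.0185). Atp5g1 (ENSMUSG00000006057, chromosome 11, 96068852 to 96075670, minus strand) was at 11.6, 11.6 and 12.0 FPKM in control and 9.63, 9.34 and 7.39 FPKM in knockout samples. It fell by 0.41 ± 0.11 (limma adjusted p = 0.0220) and was the only one of the 44 genes called lower in that fit. Atp5g2 (ENSMUSG00000062683, chromosome 15, 102662864 to 102672352, minus strand) was at 103, 104 and 107 FPKM in control and 92.0, 92.9 and 79.3 FPKM in knockout samples.

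Atp5g2 was lower in every knockout sample, with a log2 difference of −0.25 ± 0.09 that did not pass the test (limma adjusted p = 0.0584, or 0.0480 with limma-voom on recovered reads). The call for Atp5g1 was lost without control replicate 1, 2 or 3 (limma adjusted p = 0.0580, 0.0685 and 0.0778), and that for Atp5g3 without control replicate 2 or 3 (limma adjusted p = 0.0755 and 0.0787). With the replicate block neither Atp5g1 nor Atp5g3 was called. Both kept their direction in all 14 alternative fits. Knockout replicate 3 was the lowest sample for Atp5g1 and Atp5g2 and the highest for Atp5g3.

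As shares of the summed c subunit FPKM, Atp5g3 made up 65.5% ± 1.56 in control and 75.0% ± 2.92 in knockout samples, Atp5g2 31.0% ± 1.41 and 22.7% ± 2.55, and Atp5g1 3.48% ± 0.146 and 2.27% ± 0.373 (SD, n = 3 each). None of these shares overlapped between the groups, and each had p = 0.1 in the exact two-sided permutation test and 0.16 after adjustment over the 8 shares. The sum of all 3 genes was 338 ± 11.3 FPKM in control and 389 ± 11.5 FPKM in knockout samples (SD, n = 3 each). These shares and the sum rest on the gene lengths used for FPKM. The lengths were 4715 bases for Atp5g1, against 753 for Atp5g2 and 862 for Atp5g3. Summed over all samples, 8128, 12151 and 36825 reads fell on Atp5g1, Atp5g2 and Atp5g3, so by reads Atp5g1 was a larger part.

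**Figure D3:**
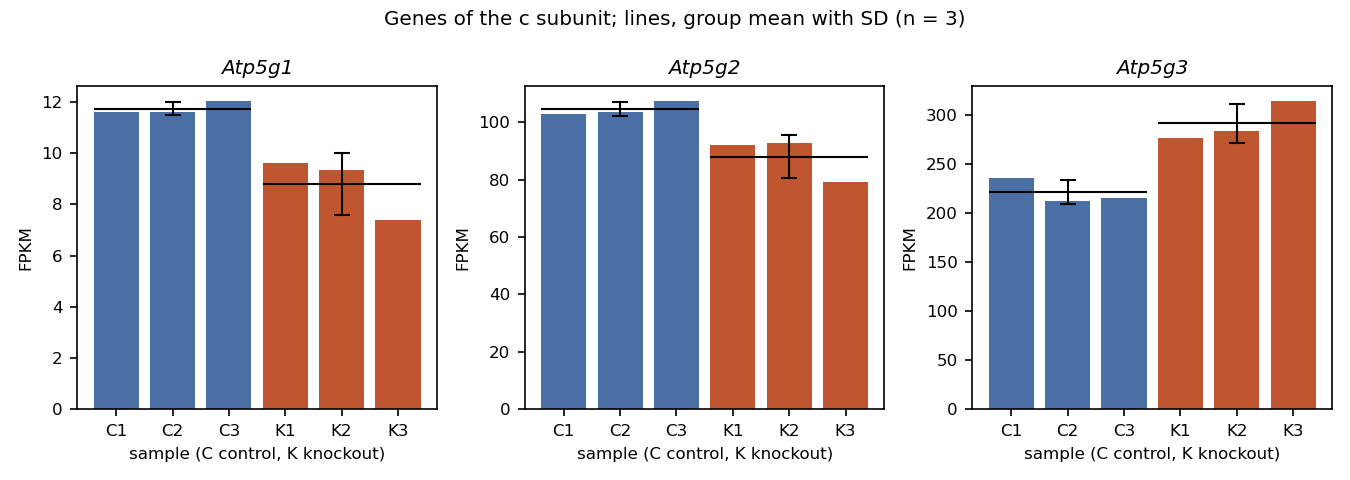
FPKM of Atp5g1, Atp5g2 and Atp5g3 in each control (C1 to C3, blue) and knockout (K1 to K3, orange) sample; lines give the group mean with its SD (n = 3). Atp5g1 and Atp5g2 are lower in all knockout samples and Atp5g3 is higher in all of them.

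The promoters of the c subunit genes are shown beside those of 4 genes that rose, with and without motif matches. RefSeq promoters of build GRCm38.p6, each with 250 bases before and 50 after a gene start, were found for 35 of the 46 genes by current or older symbol. They were searched on both strands for motifs of factors known for respiratory genes: GCGC on both sides of any base and a T for NRF1, CCGGAAG for ETS factors such as GABP, AAGGTCA for the estrogen-related receptors and AAGATGGCG for YY1. Shown are Atp5b (chr10:128083057-128083356, plus strand), which had the largest log2 difference over all 6 samples, Sdha (chr13:74350191-74350490, minus strand), Cox6a1 (chr5:115348909-115349208, minus strand) and Atp5k (chr5:108434350-108434649, minus strand), 3 genes that rose and are rich in matches, and the c subunit genes Atp5g3 (chr2:73911277-73911576, minus strand), Atp5g2 (chr15:102670998-102671297, minus strand) and Atp5g1 (chr11:96075582-96075881, minus strand). Each is written 5′ to 3′ in the gene's direction, with motif matches in capitals.
Atp5b: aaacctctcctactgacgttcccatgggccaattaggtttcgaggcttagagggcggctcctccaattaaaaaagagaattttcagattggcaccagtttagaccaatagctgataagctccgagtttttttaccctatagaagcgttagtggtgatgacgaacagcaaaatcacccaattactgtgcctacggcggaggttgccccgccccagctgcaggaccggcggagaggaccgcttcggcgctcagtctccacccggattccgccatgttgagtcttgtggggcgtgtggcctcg
Sdha: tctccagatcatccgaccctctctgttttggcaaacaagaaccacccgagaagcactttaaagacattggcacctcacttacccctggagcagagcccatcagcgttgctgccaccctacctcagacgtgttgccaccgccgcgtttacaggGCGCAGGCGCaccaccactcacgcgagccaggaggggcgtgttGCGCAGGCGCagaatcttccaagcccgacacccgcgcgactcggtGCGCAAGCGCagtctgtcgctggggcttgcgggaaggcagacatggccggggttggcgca
Cox6a1: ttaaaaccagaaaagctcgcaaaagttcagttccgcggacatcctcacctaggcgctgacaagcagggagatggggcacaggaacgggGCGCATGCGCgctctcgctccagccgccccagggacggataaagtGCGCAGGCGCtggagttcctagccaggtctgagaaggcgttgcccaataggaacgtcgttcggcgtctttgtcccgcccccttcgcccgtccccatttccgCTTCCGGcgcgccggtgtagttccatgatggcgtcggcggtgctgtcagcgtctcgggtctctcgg
Atp5k: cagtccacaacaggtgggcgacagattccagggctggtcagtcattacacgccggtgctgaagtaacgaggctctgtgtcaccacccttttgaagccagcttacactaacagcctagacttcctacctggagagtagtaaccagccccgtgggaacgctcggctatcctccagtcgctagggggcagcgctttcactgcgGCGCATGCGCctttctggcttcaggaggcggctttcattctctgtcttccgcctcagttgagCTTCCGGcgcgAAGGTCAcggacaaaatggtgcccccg
Atp5g3: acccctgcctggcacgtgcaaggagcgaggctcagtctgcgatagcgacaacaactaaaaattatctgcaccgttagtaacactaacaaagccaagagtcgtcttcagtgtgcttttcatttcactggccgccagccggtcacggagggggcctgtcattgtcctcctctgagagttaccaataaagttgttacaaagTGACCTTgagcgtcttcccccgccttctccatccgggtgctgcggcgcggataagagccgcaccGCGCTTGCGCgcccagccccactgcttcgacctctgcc
Atp5g2: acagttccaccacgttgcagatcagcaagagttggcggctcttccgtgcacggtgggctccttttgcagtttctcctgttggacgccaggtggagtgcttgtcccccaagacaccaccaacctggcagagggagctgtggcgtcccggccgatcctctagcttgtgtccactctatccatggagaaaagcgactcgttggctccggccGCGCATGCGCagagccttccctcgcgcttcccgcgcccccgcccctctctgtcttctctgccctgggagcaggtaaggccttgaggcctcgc
Atp5g1: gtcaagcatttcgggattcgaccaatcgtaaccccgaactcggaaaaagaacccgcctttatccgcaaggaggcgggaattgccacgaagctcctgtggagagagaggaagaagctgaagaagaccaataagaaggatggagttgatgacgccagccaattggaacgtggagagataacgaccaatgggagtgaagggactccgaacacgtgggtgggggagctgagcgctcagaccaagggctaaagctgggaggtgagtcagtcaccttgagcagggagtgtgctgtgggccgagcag

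Sdha held 3 NRF1 matches, Cox6a1 held 2 with 1 ETS match, and Atp5k held 1 match each of NRF1, ETS and the receptor motif. Atp5g3 held 1 NRF1 match and 1 receptor match (on the other strand, as TGACCTT), Atp5g2 held 1 NRF1 match, and Atp5g1 held none of the 4 motifs. Atp5b held none either. Of the 18 genes with a promoter that rose, 6 had no match (Atp5b, Atp5s, Cox5b, Cox7a2, Uqcr10 and Uqcrfs1). The same held for 7 of 15 that were not called. Atp5o, which rose, held a single NRF1 match and no other, as did Atp5g2. Whether these letters bear on the direction of a gene was not tested. Among the 35 genes 10 had an NRF1 match (28.6%), against 10.9% of 10672 tested genes with a promoter and 5.19% of all 27025 genes with a promoter. An ETS match was found in 12 of the 35 genes (34.3%), against 19.2% of those tested genes and 9.93% of all genes with a promoter. For the receptor motif it was 5 genes (14.3%, against 4.03% and 5.38%) and for YY1 3 genes (8.57%, against 3.42% and 1.64%). Among the tested genes of these 35, the median log2 difference was 0.41 with an NRF1 match and 0.29 without. With and without a match it was 0.347 and 0.346 for ETS, 0.296 and 0.347 for the receptor motif, and 0.186 and 0.347 for YY1. A match describes letters in this window and is no evidence of binding.

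The mRNAs of Nrf1, Gabpa, Esrra and Yy1, factors named for these motifs, were not among those that rose. Other estrogen-related receptors and other ETS factors were not in the list read here. Of 9 regulators of mitochondrial biogenesis 8 were tested, none was called higher, and Pprc1, a coactivator related to PGC-1, fell by 0.25 ± 0.07 (SE, limma adjusted p = 0.0356). Over all tested genes 21.9% were called higher and 21.6% lower. Nrf1, Gabpa, Esrra, Tfam and Yy1 had log2 differences of −0.18, −0.06, −0.11, −0.01 and −0.20 and were not called, and for Yy1 all knockout values were below all control values. Ppargc1a, which encodes PGC-1alpha, was below the filter, at 0.264 ± 0.0926 FPKM in control and 0.532 ± 0.128 FPKM in knockout samples (SD, n = 3 each), and its groups did not overlap.

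The subunit genes also differed in how the knockout samples spread. Relative to the control mean, the median over the 44 genes was 1.198, 1.25 and 1.38 in knockout replicates 1, 2 and 3, and knockout replicate 3 was the highest of all 6 samples for 29 of the 44. In 14 genes it was more than 1.2 times the mean of the other knockout samples, a limit chosen after the values were seen. These 14 were all of complex II, Cyc1, Uqcrfs1, Uqcrc1, Uqcrc2 and Uqcr10 in complex III, Cox6a1, and Atp5a1, Atp5b, Atp5c1 and Atp5d of the ATP synthase head and central stalk. In 15 others, among them Uqcr11, Uqcrb, Cox5b, Atp5j and Atp5k, knockout replicate 3 was within 10% of that mean. Knockout replicate 3 also had the highest summed adipocyte markers, 25330 FPKM against 18685 and 19325 in knockout replicates 1 and 2, and the lowest summed macrophage markers. The part of either in this spread was not tested. Without this library 28 genes were called higher and 1 lower, and the median log2 difference was 0.30. The 28 were 63.6% of the 44, against 20.9% of all tested genes called higher in that fit.

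**Figure D4:**
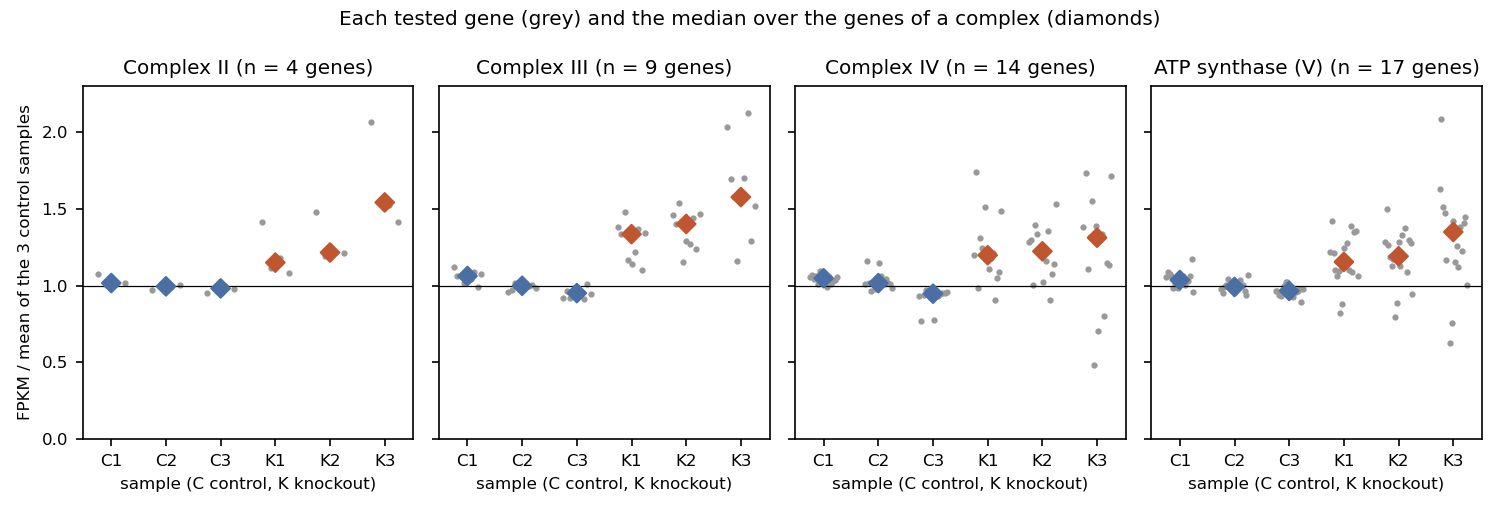
FPKM of each tested gene divided by its mean in the 3 control samples (grey points), by complex and sample, with the median over the genes as diamonds (blue control, orange knockout). Medians in knockout replicate 3 reach 1.54 in complex II and 1.58 in complex III, against 1.31 in complex IV and 1.35 in ATP synthase.

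Taken over all 46 genes, 0.612%, 0.578% and 0.562% of gene-assigned reads fell on them in control replicates 1, 2 and 3, and 0.724%, 0.760% and 0.906% in knockout replicates 1, 2 and 3. The 5 subunits that bind iron (Sdhb, Sdhc, Sdhd, Cyc1 and Uqcrfs1) had a median log2 difference of 0.37, close to that of all 44 genes, and 3 of them were called higher. Levels in FPKM, which divide reads by gene length, spanned a wide range. By reads the order can differ. Sdhc, of 3171 bases, had 23040 reads over all samples, against 18299 for Sdhb, of 1232 bases. Among tested genes of complex IV the control mean ran from 2.71 FPKM for Cox4i2 to 395 FPKM for Cox6a1, in complex III from 53.4 FPKM for Uqcrc2 to 133 FPKM for Uqcr11, and in complex II from 37.9 FPKM for Sdhc to 97.1 FPKM for Sdha.

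Genes that help build or complete the same complexes were read beside them. Cycs, cytochrome c, which carries electrons from complex III to complex IV, was at 32.5, 27.0 and 27.7 FPKM in control and 38.7, 42.6 and 46.2 FPKM in knockout samples, and rose by 0.54 ± 0.10 (SE, limma adjusted p = 0.00841). Ndufa4, now counted as a subunit of complex IV, rose by 0.37 ± 0.09 (limma adjusted p = 0.0196). Of the assembly factors, 1 of 3 tested for complex II, 3 of 6 for complex III and 7 of 22 for complex IV rose and none fell, against 21.9% of all tested genes that rose. Sco2 and Pet117, of complex IV assembly, were listed at 0 in all samples. Sdhaf4, listed as 1110058L19Rik, rose by 0.58 ± 0.09, and Uqcc1 and Lyrm7, a factor that handles the Rieske protein, by 0.65 ± 0.12 and 0.63 ± 0.14. Higd1a and Cox19 rose by 0.65 ± 0.07 each. Their adjusted p ranged from 0.00363 to 0.0119 (limma).

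For ATP synthase, 2 of 6 genes read beside it rose and 1 fell. Among the 6, Usmg5 and 2010107E04Rik encode small proteins of the enzyme itself that the rule does not reach. Neither was called (log2 differences 0.30 and 0.06). Atpaf2 and Tmem70, which help assemble the head and the ring, rose by 0.83 ± 0.11 and 0.73 ± 0.14 (limma adjusted p = 0.00411 and 0.00944). Atpif1, the protein that blocks ATP hydrolysis by the enzyme, was at 22.04, 24.9 and 24.2 FPKM in control and 13.2, 12.6 and 7.42 FPKM in knockout samples. Its direction was opposite to most subunits, and it fell by 1.11 ± 0.21 (limma adjusted p = 0.00831). Of the 6 mitochondrially encoded subunits of complexes III to V 1 was called: mt-Cytb of complex III, at 2373, 2258 and 2247 FPKM in control and 3214, 3465 and 5537 FPKM in knockout samples, rose by 0.79 ± 0.23 (limma adjusted p = 0.0310). mt-Co1 of complex IV had a log2 difference of 0.75 ± 0.26 and was not called (limma adjusted p = 0.0517). The levels of the other 4 were far below these: mt-Co2, mt-Co3, mt-Atp6 and mt-Atp8 had control means of 29.3, 22.1, 19.1 and 0.523 FPKM, against 4786 FPKM for mt-Co1. These mitochondrial values are uneven to a degree that makes the 4 low ones doubtful, and they were not called.

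Reads of near-identical copies and overlapping genes bear on some values. By alignment of GENCODE M21 transcripts, 14 of the 46 genes had a copy elsewhere with at least 95% identity over 200 bases or more. Reads on such copies in the table were at most 1.69% of those on the gene itself, for Atp5l, and 0.886% for Atp5g1. The counting of reads that match several places is not given in the sources used here, and the values of these genes are uncertain for that reason. The percentages do not bound this, since reads dropped for matching several places would not show in them. Some copies were also absent from the deposited values, as for Atp5l, with 6 of 9 copies present. Atp5j overlaps Gabpa and Cox4i1 overlaps Emc8 on the opposite strand, and without a stated strand setting such reads cannot be told apart, although Gabpa was at 7.78 to 8.84 FPKM and Emc8 at 9.12 to 11.2 FPKM in the 6 samples. A second annotated gene by the name of Atp5o shares 243 exonic bases with it on the same strand.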

How the data were processed

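Total RNA of epididymal fat from 3 control and 3 knockout samples was sequenced from NEBNext Ultra libraries, per the labels' protocols. CASAVA, FastQC, STAR 2.5, HTSeq 0.6.1 and build mm10 are named in the submitters' processing notes. The deposited table holds FPKM, per the file headers, which the authors scaled to gene length and gene-assigned reads; FPKM times length in kilobases summed to 1000000 in every sample. All values above 0 (100%) came out as whole numbers of reads with a tolerance of 0.01 read, from which read numbers and depth were taken. The limit that a count of 0 allows, 3 reads, on a gene of 1 kb is 0.0979 to 0.119 FPKM and covers counting error only.

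Genes with at least 0.5 FPKM in 3 samples (14383) were fitted as log2(FPKM + 0.5) with limma 3.58.1 (R 4.3.3, statmod 1.5.0; trend and robust moderation, two-sided, Benjamini-Hochberg over all tested genes). The labels do not say that samples are separate animals, and the p-values then measure only how these samples vary, which may be technical. Replicate pairs differed by more than counting noise (chi-square per degree of freedom from 15.5 to 98.1). Same-numbered samples did not deviate together (correlations −0.24, 0.03 and −0.18 for numbers 1, 2 and 3), so no pairing was used. The procedure was tested on simulated data. These held far fewer changed genes than were called here and no shift shared by the genes of a sample. That test does not cover the spread seen between replicates.

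The genes, lists and alternatives were chosen with earlier results of these data known. Every gene of the rule is accounted for. Values in every sample are given for complex II, for catalytic and cofactor-binding genes and for isoforms of particular tissues. They are also given for the 2 genes with the smallest p and the 2 with the lowest difference in each complex, and for genes called lower. From each other list up to 4 called genes of smallest p were named, besides Atpif1, Cycs, Ndufa4, Cox7a1 and Cox8b. Alternatives were other pseudocounts, filters, scaling, limma-voom, a replicate block and leaving out samples. Promoter sequences are from RefSeq, GRCm38.p6. Figures were made with Python 3.11.15 and matplotlib 3.10.9.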

Additional observations from a re-analysis of the deposited data

How the results depend on the processing

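The direction held for 40 of the 44 tested genes in all 14 alternatives. The other 4 had differences near 0 and changed sign on the log2 scale: Cox5a (−0.0013 without control replicate 3, −0.0079 without knockout replicate 3, up to 0.0754 without knockout replicate 1), Atp5sl (−0.0273 and −0.0148 without control replicate 1 and 3, −0.0371 without knockout replicate 1, up to 0.0477 without control replicate 2), Cox6b2 (0.0178 without control replicate 2, 0.0969 without knockout replicate 3, 0.1955 without both, down to −0.2351 without control replicate 3) and Cox6a2 (0.0258 without control replicate 1, 0.394 without knockout replicate 3, 0.38 without that library and control replicate 2, a combination chosen after seeing the data, and −0.3198 without knockout replicate 1). Leaving out 1 library at a time gave 6 to 28 genes higher and 0 to 1 lower, with 0 to 4 higher in complex II, 3 to 9 in complex III, 1 to 8 in complex IV and 2 to 9 in ATP synthase. Over all genes it gave 1903 to 2963 higher and 1283 to 3069 lower. The lowest counts came without control replicate 2 or 3, and the cause was not tested. With no filter on low values 25206 genes were tested, and 1 gene of complex II and 5 of complex III were called higher. In that fit 18 of the 45 tested genes of the rule were called higher (40%), against 11.2% of all tested genes. With limma-voom on recovered reads 2 genes were lower, Atp5g1 and Atp5g2. Replicate numbers did not pair the samples, and with the replicate block 11 genes were higher and 0 lower by limma (1 in complex II, 5 in complex III, 2 in complex IV and 3 in ATP synthase). The 11 were 25% of the 44, against 15.8% of all tested genes called higher with the replicate block. Depth limits only the genes of low level, Cox4i2, Cox6a2, Cox6b2, Cox7b2 and Cox8c.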
